A study of Mus musculus with 3 samples.

Results

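The 10 genes described here are the enterocyte lipid handling genes Fabp1, Fabp2, Rbp2, Dgat1, Aadac, Mttp, Apob, Apoa1, Apoa4 and Apoc3. They were chosen by name from the 23271 genes of the merged table of unique molecular identifier (UMI) counts, in which 1 UMI stands for 1 captured transcript. All 10 were found there. Their levels, the cells that hold them and their presence together in 1 cell were measured in organoid cells with at least 1000 and fewer than 8000 UMIs and at least 400 genes.

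The cells came from small intestinal organoids of C57BL/6 mice, which the methods give as of both sexes and 3 to 6 months old, profiled by Seq-Well, a microwell method that captures the 3' ends of transcripts of single cells. Organoids of 1 donor were first grown for 6 days in ENR+CV, which is medium with EGF, Noggin and R-spondin (ENR) plus 3 µM CHIR99021, a GSK3 inhibitor that raises Wnt signalling, and 1 mM valproic acid, a histone deacetylase inhibitor. A rho kinase inhibitor was also added at the start of this culture. The organoids were then kept for 6 days in ENR alone, in ENR+CD (3 µM CHIR99021 and 10 µM DAPT, a gamma-secretase inhibitor that blocks Notch) or again in ENR+CV. Every group therefore shares the donor and the first 6 days, and each condition was 1 library from 6 pooled wells, so no test between conditions was possible and medium and library cannot be told apart.

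Enterocytes take up fatty acids and monoglycerides, rebuild triglycerides in the endoplasmic reticulum and load them onto apolipoprotein B to make chylomicrons, which leave the cell for the lymph. Small cytoplasmic binding proteins carry fatty acids and retinol within the cell, and the smaller apolipoproteins sit on the surface of the finished particle. In the gut these genes are mostly used in the mature absorptive cells of the villus, and several of them are also strongly used in liver.

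The kept cells numbered 2545 of 2651 under ENR, 2383 of 2506 under ENR+CD and 985 of 1092 under ENR+CV, with 5095089, 4538388 and 2942252 UMIs and medians of 1553, 1543 and 2499 UMIs per cell. The mitochondrial share of UMIs was 16.5%, 8.67% and 3.89%. A label conflict touches 2 libraries: the 2506 cells named ENR+CD in the merged table are identical to cells of the table whose sample label reads ENR+CV, and the 1092 cells named ENR+CV to those of the table labelled ENR+CD. The Paneth cell markers summed to 43620.4 CPM (UMIs of a gene per 1000000 UMIs of the library) in the cells named ENR, 192915 CPM in those named ENR+CD and 6088 CPM in those named ENR+CV in the merged table. Here the merged names were used, and values under the other labels are given with the limits of the results. ENR and ENR+CD shared 1 cell barcode, and the other pairs shared 0. The 35 enterocyte markers, which include no lipid handling gene of the 10, summed to 4140 CPM under ENR, 1506 CPM under ENR+CD and 1772 CPM under ENR+CV. Ptprc, the common leukocyte marker, had 1, 1 and 2 UMIs. The 8 measured immune markers, with Ptprc among them, differed more. They summed to 51.6 CPM under ENR, 242 CPM under ENR+CD and 11.9 CPM under ENR+CV. This is also the order of the Paneth cell marker sums above. Only 2 of the 8 had enough UMIs to be compared singly between ENR+CD and ENR. Both were higher in ENR+CD. Whether the sum reflects immune cells was not tested.

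The genes lie at these places in GRCm38 (GENCODE annotation): Fabp1 on chromosome 6 from 71199827 to 71205023, Fabp2 on chromosome 3 from 122895072 to 122899506 and Rbp2 on chromosome 9 from 98486115 to 98509781. Dgat1 lies on chromosome 15 from 76502015 to 76511953, Aadac on chromosome 3 from 60025717 to 60040160, Mttp on chromosome 3 from 138089854 to 138144968 and Apob on chromosome 12 from 7977648 to 8016835. Apoa1 (46228580 to 46230466), Apoc3 (46232933 to 46235636) and Apoa4 (46240696 to 46243459) are neighbours within 14880 bases of chromosome 9 that hold 3 protein-coding genes. Fabp2, Rbp2, Mttp and Apoa4 each overlap another annotated gene, and the sources used here do not say whether counting used the strand.

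The promoters of 4 genes are shown because their genes behaved differently between the media: Fabp1, which was high in both ENR and ENR+CV, Rbp2 and Apoa1, which were highest in ENR, and Apob, which differed least. Each runs from 250 bases before to 50 bases after the RefSeq start site in GRCm38.p6, 5′ to 3′ on the + strand, at chr6:71199629-71199928, chr9:98490287-98490586, chr9:46228380-46228679 and chr12:7977427-7977726. Capitals mark matches on either strand to 4 short motifs: one of HNF4 factors, one of GATA factors, one of CDX factors and the TATA box.
Fabp1: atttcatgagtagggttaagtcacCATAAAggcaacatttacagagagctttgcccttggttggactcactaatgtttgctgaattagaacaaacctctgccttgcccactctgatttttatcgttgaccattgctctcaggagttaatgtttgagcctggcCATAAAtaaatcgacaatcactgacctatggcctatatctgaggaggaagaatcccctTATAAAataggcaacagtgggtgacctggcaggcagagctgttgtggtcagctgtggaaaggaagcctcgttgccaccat
Rbp2: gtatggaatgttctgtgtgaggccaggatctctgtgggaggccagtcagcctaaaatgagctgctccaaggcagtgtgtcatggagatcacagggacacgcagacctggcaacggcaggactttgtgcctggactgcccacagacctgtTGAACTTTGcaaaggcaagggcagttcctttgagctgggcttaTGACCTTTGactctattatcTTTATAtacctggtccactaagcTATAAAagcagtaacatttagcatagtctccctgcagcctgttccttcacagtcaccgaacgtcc
Apoa1: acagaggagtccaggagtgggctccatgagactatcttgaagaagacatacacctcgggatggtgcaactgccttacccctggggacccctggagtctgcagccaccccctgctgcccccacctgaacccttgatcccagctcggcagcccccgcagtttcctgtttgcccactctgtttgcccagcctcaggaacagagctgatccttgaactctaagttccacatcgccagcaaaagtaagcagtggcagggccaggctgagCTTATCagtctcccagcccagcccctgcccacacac
Apob: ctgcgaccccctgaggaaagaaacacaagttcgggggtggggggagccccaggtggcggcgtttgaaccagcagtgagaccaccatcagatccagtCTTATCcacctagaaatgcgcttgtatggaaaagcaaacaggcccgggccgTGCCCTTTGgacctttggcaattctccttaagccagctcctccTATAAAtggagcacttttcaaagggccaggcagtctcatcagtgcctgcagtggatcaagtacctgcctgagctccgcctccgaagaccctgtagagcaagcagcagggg

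The RefSeq promoter table held 8 of the 10 genes, Dgat1 and Apoc3 being the others. The motif of HNF4, a nuclear receptor of gut and liver epithelium, was searched as CAAAGNNCA. It was found in 4 of the 8 windows (Fabp2, Rbp2, Apob and Apoa4) and in 6.36% of all 32851 promoters of the table. The motif of the GATA family was searched as GATAAG and was found in 2 of the 8 (Apob and Apoa1), against 7.44% of all promoters. The motif of the CDX homeobox factors of the intestine was searched as TTTATG and was found in 1 of the 8 (Fabp1), against 11.9% of all promoters. The TATA box, the start signal that many tissue-specific promoters carry, was searched as TATAAA. It was found in 3 of the 8 (Fabp1, Rbp2 and Apob), against 13.6% of all promoters, and no 2 motifs overlapped in the windows shown. The Aadac and Mttp windows held no match. A match is a description of the letters and not a measured binding site.

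The first question was how high the 10 genes stood together in each medium. Summed over the 10 genes, ENR cells had 2604 CPM (95% interval 2560 to 2649, 13267 UMIs), ENR+CD cells 292 CPM (276 to 308, 1325 UMIs) and ENR+CV cells 1443 CPM (1400.4 to 1488, 4247 UMIs). ENR was thus the highest and ENR+CD the lowest, and the 3 intervals did not overlap. The sums weigh abundant genes most. Fabp1 and Fabp2 made up 29.7% and 41.1% of these UMIs in ENR and 60.6% and 17.3% in ENR+CV. In ENR+CD Apob had the largest part, 37.8%. Intervals here and below are exact and cover counting error only, since there was no replicate. The values are not divided by gene length, because each UMI marks the 3' end of 1 transcript. In a summed library, fewer cells that use a gene and less RNA per cell cannot be told apart.

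Fabp1, the liver-type fatty acid binding protein, stood at 774 CPM (750.1 to 799) under ENR, 22.7 CPM (18.5 to 27.5) under ENR+CD and 875 CPM (842 to 909.6) under ENR+CV. It was the gene with the lowest level in ENR+CD relative to both other media among the 9 genes with over 3 UMIs there. Fabp2, the intestinal fatty acid binding protein, stood at 1069 CPM (1041 to 1098) under ENR, 85.9 CPM (77.6 to 94.9) under ENR+CD and 250.1 CPM (232 to 269) under ENR+CV. It was the most abundant of the 10 in ENR, and the 3 media were apart. Rbp2, which binds retinol in the absorptive cell, stood at 58.3 CPM (51.9 to 65.3) under ENR, 7.93 CPM (5.56 to 10.98) under ENR+CD and 14.6 CPM (10.6 to 19.7) under ENR+CV. Its ENR level was apart from both others, which overlapped.

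Dgat1, an acyltransferase of the last step of triglyceride synthesis, stood at 72.8 CPM (65.6 to 80.6) under ENR, 16.7 CPM (13.2 to 21.0) under ENR+CD and 75.8 CPM (66.2 to 86.4) under ENR+CV. Its ENR and ENR+CV levels overlapped. Aadac, an esterase of the endoplasmic reticulum, stood at 97.7 CPM (89.3 to 107) under ENR and 13.9 CPM (10 to 18.9) under ENR+CV, and had 3 UMIs in ENR+CD (0.661 CPM, 0.136 to 1.93). It was the gene nearest to absence in ENR+CD, at the level of 3 counts that was taken as the limit of detection.

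Mttp, the transfer protein that loads lipid onto apolipoprotein B, stood at 98.7 CPM (90.3 to 108) under ENR, 14.8 CPM (11.4 to 18.7) under ENR+CD and 110.1 CPM (98.5 to 123) under ENR+CV. Like Dgat1, it was low in ENR+CD and overlapped between ENR and ENR+CV. Apob, the structural protein of the chylomicron, stood at 109.9 CPM (101 to 119) under ENR, 110.4 CPM (101 to 121) under ENR+CD and 85.0 CPM (74.8 to 96.2) under ENR+CV. It was the exception among the 10, with overlapping levels in ENR and ENR+CD and a somewhat lower one in ENR+CV.

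Apoa1, a surface apolipoprotein of chylomicrons and of high density lipoprotein, stood at 138 CPM (128 to 148) under ENR, 22.3 CPM (18.1 to 27.0) under ENR+CD and 3.74 CPM (1.87 to 6.69) under ENR+CV. Here the order of the lower media turned round, with ENR+CV below ENR+CD. Apoa4, an apolipoprotein made mainly by the intestine, stood at 107 CPM (97.8 to 116) under ENR, 4.41 CPM (2.69 to 6.81) under ENR+CD and 12.9 CPM (9.14 to 17.7) under ENR+CV. Apoc3, which slows the clearance of triglyceride-rich particles, stood at 78.9 CPM (71.4 to 87.0) under ENR, 6.17 CPM (4.10 to 8.92) under ENR+CD and 2.04 CPM (0.748 to 4.44) under ENR+CV, where it had 6 UMIs. All 3 genes of the chromosome 9 neighbourhood were highest in ENR, while the order of the other media differed between them.

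**Figure D1:**
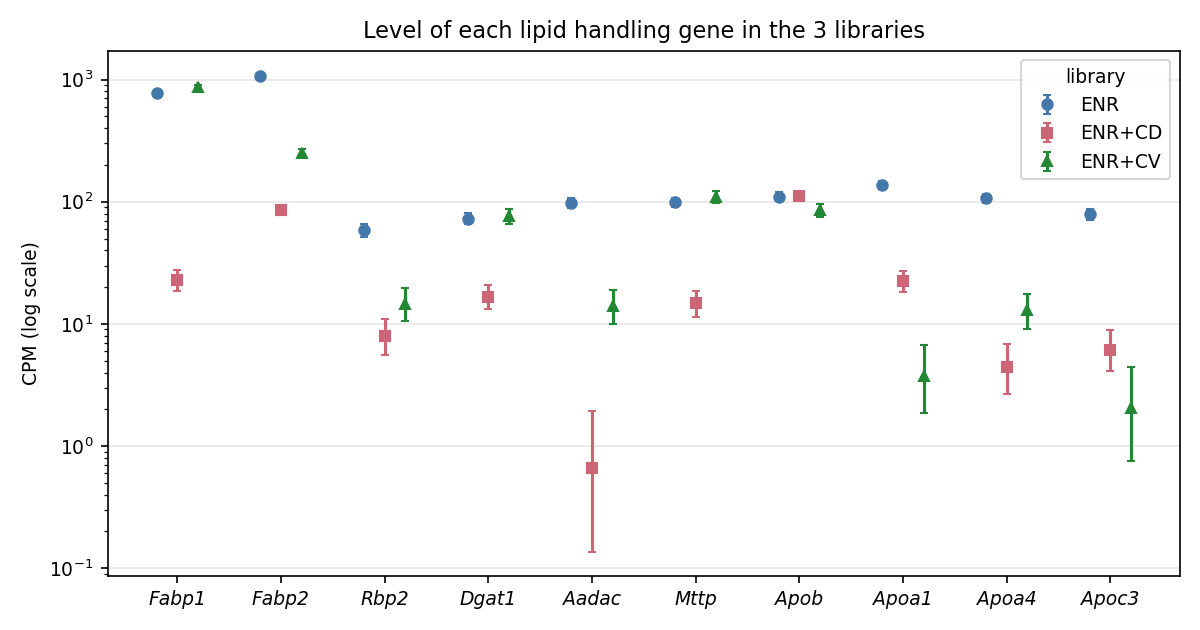
Level of each of the 10 genes in CPM (log scale) in the ENR, ENR+CD and ENR+CV libraries; points are 1 library each and bars are exact Poisson 95% intervals (counting error only). Apob lies between 85.0 and 110.4 CPM in all 3 libraries, whereas Aadac runs from 0.661 CPM under ENR+CD to 97.7 CPM under ENR.

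Against ENR, the ENR+CD library held 0.112 times the summed level (0.106 to 0.119). A gene was called lower or higher where the CPM differed at least 2-fold, the intervals were apart and the pair held at least 20 UMIs. By that rule 9 of the 10 genes were lower in ENR+CD, against 9.35% of the 12197 genes tested, and 0 were higher, against 10.8%. The median log2 ratio was -3.25 over the 10 genes and -0.01 over all genes tested. The ratios of the 9 genes ran from 0.230 (0.177 to 0.295) for Dgat1 to 0.0293 (0.0239 to 0.0357) for Fabp1 and, on 3 UMIs, 0.00676 (0.00139 to 0.0199) for Aadac. Apob had a ratio of 1.004 (0.889 to 1.13). As a result, Apob made up 4.22% of the UMIs of the 10 genes in ENR and 37.8% in ENR+CD, while Fabp1 made up 29.7% and 7.77%.

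Against ENR, the ENR+CV library held 0.554 times the summed level (0.535 to 0.574), but the genes divided. In ENR+CV 6 of the 10 were lower, against 5.8% of the 11962 genes tested, and 0 were higher, against 15.9%. The 6 genes were Apoc3 (ratio 0.0259, 0.00943 to 0.0568), Apoa1 (0.0271, 0.0135 to 0.0488), Apoa4 (0.121, 0.0848 to 0.168), Aadac (0.143, 0.101 to 0.196), Fabp2 (0.234, 0.216 to 0.253) and Rbp2 (0.251, 0.178 to 0.346). With all cells of the merged table, 5 of the 10 were lower, since Rbp2 was then at 0.596. The others had ratios of 1.13 (1.08 to 1.19) for Fabp1, 1.12 (0.967 to 1.29) for Mttp, 1.04 (0.878 to 1.23) for Dgat1 and 0.773 (0.663 to 0.899) for Apob. The median log2 ratio over all genes tested was 0.35 in this pair, against -2.04 over the 10 genes. With that median set to 0, Fabp1, Mttp and Dgat1 came to 0.892, 0.880 and 0.821, so the side of 1 on which these 3 lie depends on the scaling.

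**Figure D2:**
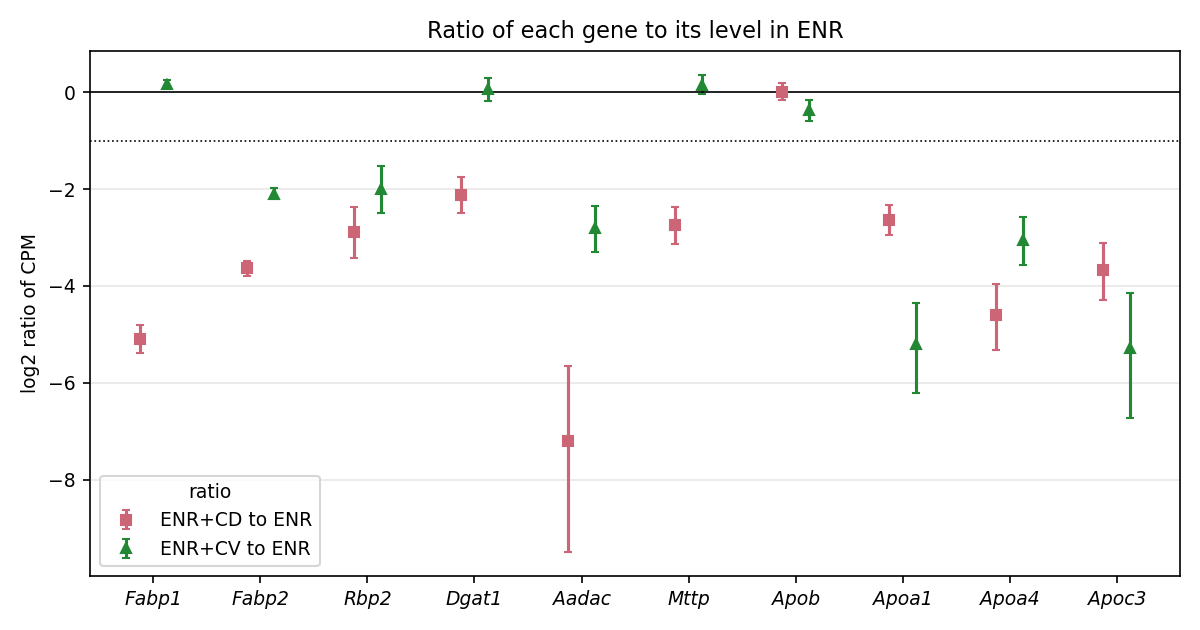
Log2 ratio of CPM of each gene to its level in ENR, for ENR+CD and ENR+CV; bars are exact conditional 95% intervals (counting error only), the solid line marks equal levels and the dotted line a level lower by a factor of 2. In ENR+CD 9 genes lie below the dotted line and Apob at equal levels, and in ENR+CV Fabp1, Dgat1, Mttp and Apob lie above the dotted line.

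Between the chemically treated media, ENR+CD held 0.202 times the summed level of ENR+CV (0.190 to 0.215). In ENR+CD 6 of the 10 were lower, against 18.9% of the 12099 genes tested, and 1 was higher, against 7.1%. The lower genes were Fabp1 (0.0259, 0.0211 to 0.0316), Aadac (0.0474 on 3 UMIs, 0.00940 to 0.149), Mttp (0.134, 0.102 to 0.175), Dgat1 (0.221, 0.168 to 0.288), Apoa4 (0.341, 0.188 to 0.601) and Fabp2 (0.344, 0.303 to 0.389). Apoa1 was the higher gene, at 5.95 times (3.19 to 12.3), and under the merged names its alternatives ran from 3.56 with all cells of the merged table to 14.5 without the enterocyte-like cells described below. With cells of at least 2000 UMIs Apoa4 was at 1.07 and did not meet the rule. Rbp2 (0.543, 0.339 to 0.865), Apob (1.30, 1.11 to 1.52) and Apoc3 (3.03, 1.23 to 8.94) did not meet the rule. The median log2 ratio was -1.54 over the 10 genes and -0.36 over all genes tested. The 3 comparisons share libraries with each other and are not independent.

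The next question was how many cells carried these transcripts. To set libraries of unlike depth side by side, each cell was thinned to 1000 UMIs, which left out 0 kept cells. At least 1 UMI of the 10 genes was then found in 77.6% of ENR cells (75.9% to 79.2%), 16.9% of ENR+CD cells (15.4% to 18.4%) and 48.1% of ENR+CV cells (45.0% to 51.3%), and in 88.6%, 26.1% and 76.3% before thinning. The order followed that of the levels.

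Fabp2 was found in 57.3% of thinned ENR cells, 5.50% of ENR+CD cells and 17.4% of ENR+CV cells, and in 71.9%, 8.43% and 37.6% before thinning. Fabp1 was found in 29.1%, 0.839% and 21.7% of thinned cells, and in 37.6%, 1.09% and 43.1% before thinning. Its CPM was thus higher in ENR+CV than in ENR while its thinned share of cells was lower. Apob was found in 8.64%, 9.27% and 7.72% of thinned cells, a narrow range across the media. Aadac was found in 8.72% and 1.22% of thinned ENR and ENR+CV cells and in 0 of 2383 thinned ENR+CD cells, which allows a share of up to 0.126%. Shares of cells with a UMI are not taken here as shares of expressing cells, and which cells express the genes was not tested. A cluster led by Klk1, Ccl6 and Ccl9 met the marker rule given below for goblet-like, though the Paneth cell markers Gm15299 and AY761184 were also among its leading genes. In its 700 ENR cells, at a median of 1605 UMIs, Fabp2 was found in 71.6% before thinning and Fabp1 in 42.6%. Over all ENR cells, at a median of 1553 UMIs, the shares were 71.9% for Fabp2 and 37.6% for Fabp1.

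The UMIs of a gene were spread over cells very unevenly in some libraries. In ENR+CV, 1 cell of 4453 UMIs held 500 Fabp1 UMIs, and the 10 cells richest in Fabp1 held 54.9% of its UMIs. In ENR the richest 10 cells held 18.5%, and 87 cells were needed for 50% of the UMIs, against 9 in ENR+CV. Leaving out those 10 cells in each library, the ratio of Fabp1 in ENR+CV to ENR was 0.629 (0.588 to 0.673) in place of 1.13. The cells were picked by the gene compared, and 10 cells are a larger part of 985 ENR+CV cells than of 2545 ENR cells. The rule thus lowers this ratio by itself. Fabp1 made up at least 1% of all UMIs in 35 kept ENR cells (1.38%, 0.960% to 1.91%), 0 ENR+CD cells and 20 ENR+CV cells (2.03%, 1.24% to 3.12%). This cut-off was chosen after the values were seen. At 0.5% the shares were 3.42% of ENR cells and 2.74% of ENR+CV cells, and at 2% they were 0.0786% and 1.12%. The order of these 2 media thus depends on the cut-off. In the cells below 1%, a group cut on Fabp1 itself, its level was 543 CPM under ENR, 22.7 CPM under ENR+CD and 280.2 CPM under ENR+CV. Below 0.5% it was 422, 12.1 and 231 CPM.

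In ENR+CD the few UMIs of several genes also lay in few cells. Apoa1 had 101 UMIs there in 30 cells, of which 36 lay in 1 cell and 79.2% in 10 cells. Apoa4 had 20 UMIs in 6 cells, with 14 in 1 cell, and Fabp1 had 103 UMIs in 26 cells, of which 3 held at least 50%. Without the 10 richest cells per gene and library, the ratio to ENR was 0.0430 (0.0264 to 0.0663) for Apoa1 in place of 0.162 and 0.00836 (0.00535 to 0.0125) for Fabp1 in place of 0.0293. In ENR, Apoa1 was found in 363 cells and Fabp1 in 956, so the same 10 cells are a far smaller part there. A fall of these ratios was therefore set by the rule and describes only how few ENR+CD cells held the UMIs. Apob had no such concentration: 359 ENR+CD cells held its 501 UMIs, and 109 cells were needed for 50% of them.

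**Figure D3:**
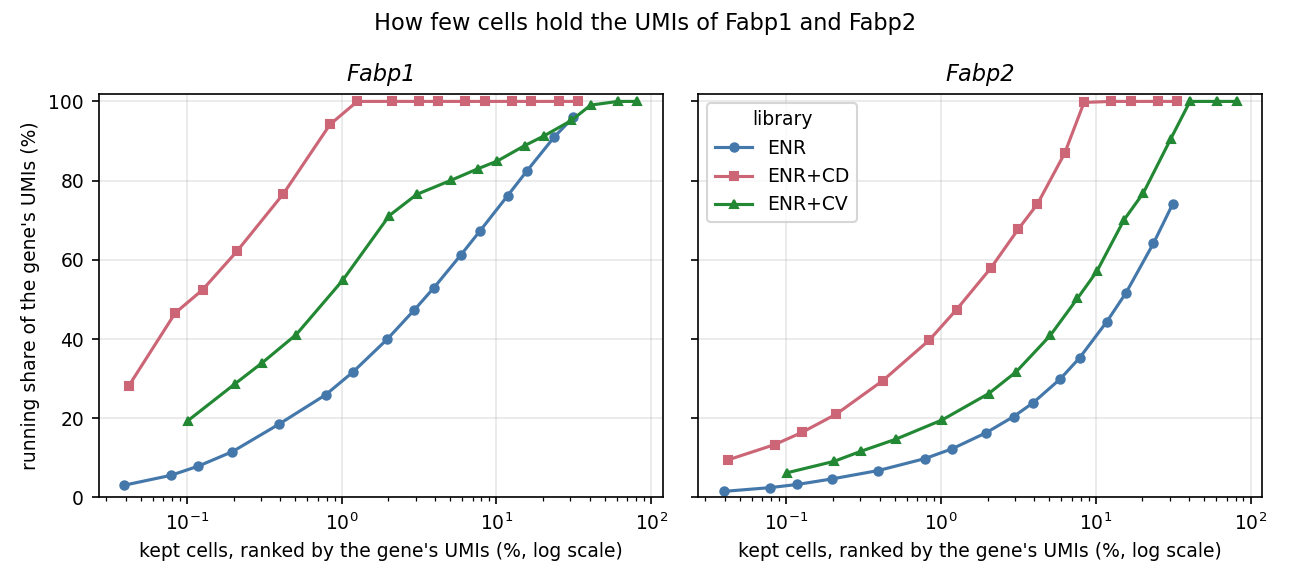
Running share of Fabp1 (left) and Fabp2 (right) UMIs in % against the share of kept cells in % (log scale), cells being ranked by the UMIs of the gene, in ENR, ENR+CD and ENR+CV. The richest 10 cells, at 1.02% of ENR+CV cells, held 54.9% of the Fabp1 UMIs and 19.6% of the Fabp2 UMIs of that library.

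Cells of 8000 UMIs or more were outside the kept range and numbered 82 under ENR, 77 under ENR+CD and 101 under ENR+CV. The 10 genes summed to 1350.1 CPM, 249.6 CPM and 4934 CPM in them, so that the ENR+CV cells of this size were 3.42 times (3.28 to 3.56) richer than the kept ENR+CV cells and the ENR cells 0.519 times (0.490 to 0.548) as rich as the kept ENR cells. Of the 4158 Fabp1 UMIs in the large ENR+CV cells, 3157 lay in 5 cells. The richest of them had 10110 UMIs, of which 766 (7.58%) were Fabp1, 197 Fabp2, 23 Rbp2 and 19 Apoa4. With all cells of the merged table the summed ratio of ENR+CV to ENR was 1.01 (0.986 to 1.04) in place of 0.554, and that of Fabp1 was 2.54. Large cells can be doublets. No doublet caller was run, and the part of doublets in these values was not tested.

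To ask which cells held the transcripts, the kept cells of the 3 libraries were clustered together with the 10 genes left out of the variable genes, and clusters were named from marker lists that hold none of the 10. Of 15 clusters, 1 met the rule for enterocyte-like: 405 cells with Reg1 and Spink3 among their leading genes, of which 395 were ENR cells, 3 ENR+CD cells and 7 ENR+CV cells. Its ENR cells had 12913.5 CPM of the enterocyte markers, against 2663 CPM in the other ENR cells, at median depths of 1517 and 1557 UMIs. They also held 14767 CPM of Paneth cell markers, against 48478 CPM in the other ENR cells. The enterocyte-like cells were 15.5% of the ENR cells and held 14.4% of the ENR UMIs, but 45.6% (44.7% to 46.4%) of the UMIs of the 10 genes. The summed level was 8238 CPM (8031 to 8448) in them and 1655 CPM (1617 to 1694) in the other ENR cells. A comparison of clusters drawn from the same cells is a description, and no test was made of it.

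The genes fell into 2 patterns in ENR, a division made after the values were seen. Fabp1, Apoc3, Rbp2, Apoa1 and Apoa4 each had over 60% of their UMIs in the enterocyte-like cells. Fabp1 stood at 3623 CPM (3487 to 3763) in them and 294 CPM (278 to 311) outside, 12.3 times (11.5 to 13.2) apart. Apoc3 stood at 354 and 32.6 CPM, Rbp2 at 248 and 26.4 CPM, Apoa1 at 586 and 62.4 CPM and Apoa4 at 452 and 48.4 CPM, which is from 9.35 to 10.9 times apart.

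Mttp, Aadac, Fabp2, Dgat1 and Apob were less concentrated, with 36.4%, 30.9%, 29.7%, 26.4% and 23.9% of their UMIs in the same cells. Mttp stood at 249 CPM in the enterocyte-like cells and 73.4 CPM outside, 3.40 times (2.82 to 4.09) apart. Apob stood at 182 and 97.7 CPM, 1.87 times (1.53 to 2.27) apart, the smallest gap of the 10. Fabp2 stood at 2199.7 and 879 CPM, and in each of the 4 other large ENR clusters it lay between 768 and 936 CPM, whereas Fabp1 ranged from 88.4 to 485 CPM over the same clusters. The level of Fabp1 was above that of Fabp2 in the enterocyte-like cells and below it in each of those 4 clusters, so the genes did not keep one ratio across cell groups.

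**Figure D4:**
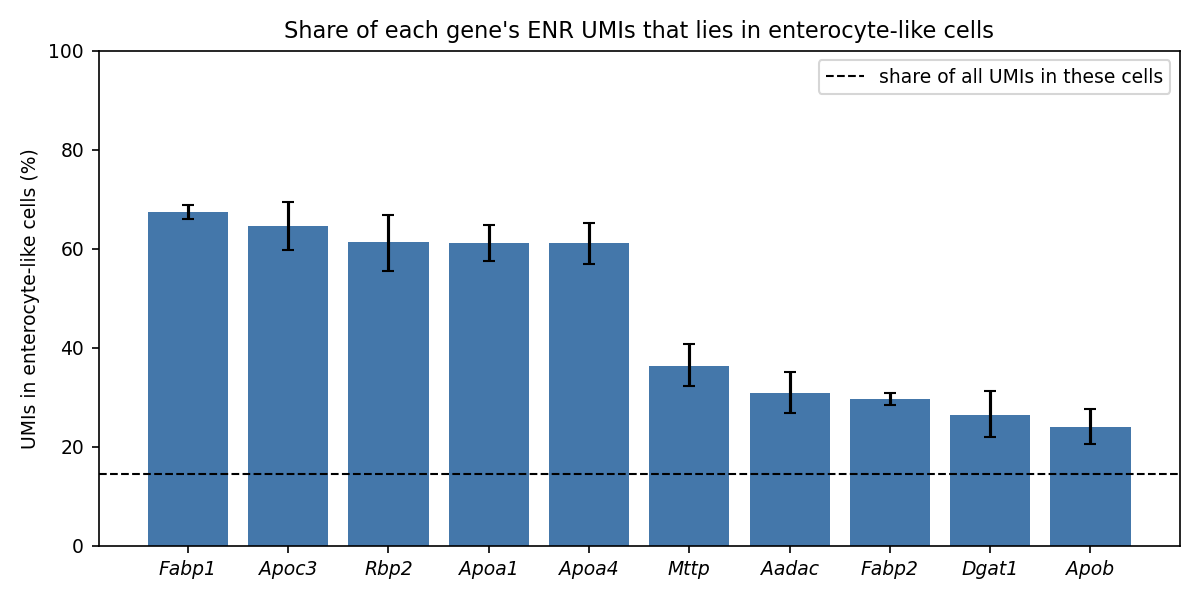
Share of the ENR UMIs of each gene, in %, that lay in the 395 enterocyte-like ENR cells; bars start at 0 and error bars are exact binomial 95% intervals (counting error only). The dashed line at 14.4% is the share of all ENR UMIs in these cells, and the bars fall into a set from 61.1% to 67.4% and a set from 23.9% to 36.4%.

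The enterocyte-like cells of the other media were too few for more than counts. In ENR+CD the 3 cells held 56 of 101 Apoa1 UMIs (55.4%), 14 of 20 Apoa4 UMIs (70.0%) and 29 of 103 Fabp1 UMIs (28.2%), but 5 of 501 Apob UMIs (0.998%). In ENR+CV the 7 cells held 903 of 2575 Fabp1 UMIs (35.1%), 9 of 11 Apoa1 UMIs and 20 of 38 Apoa4 UMIs. With the enterocyte-like cells left out of all 3 libraries, an alternative added after the data were seen, the counts of lower genes stayed at 9 for ENR+CD against ENR and 6 for ENR+CV against ENR, in the same genes. The ratio of Fabp1 in ENR+CV to ENR was then 1.94 (1.81 to 2.09) and that of Mttp 1.43 (1.22 to 1.67).

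Outside the enterocyte-like cells, Apob in ENR+CD was unevenly spread over the clusters. It stood at 157 CPM in the 572 ENR+CD cells of a cluster led by Sbspon, Notum and Rdh10, and at 127 CPM in the 649 cells of a cluster led by Rgs5, Clu and Sct. It stood at 136 CPM in 92 enteroendocrine-like cells led by Gcg, Scg2 and Neurod1. Both Paneth-like clusters were lower, at 66.1 CPM in 817 cells led by Mptx2, Defa3 and Ang2 and 34.5 CPM in 203 cells led by Gm15293, Defa5 and Gm15315. Fabp1 in those 5 groups was between 0 and 20.9 CPM.

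In ENR+CV, Fabp1 was found in each of the 4 main clusters, none of which had enough markers to be named. It stood at 615 CPM in 327 cells led by mmu-mir-6236, Vwa3b and Boc, 287 CPM in 228 cells led by the histone genes Hist1h2an, Hist1h2ae and Hist1h2af, and 341 CPM in 223 cells with Cubn and H2-Ab1 among their leading genes. In 176 cells led by Gm23924, Gm24616 and Gm26205 it stood at 1861 CPM, and 3 of those cells held 237, 98 and 71 of its 723 UMIs. Single cells weighed in other clusters too: 1 cell held 87 of the 298 Fabp1 UMIs of the histone gene cluster. Another held 73 of the 311 in the cluster with Cubn and H2-Ab1. Apoa1 had 1, 0, 1 and 0 UMIs in these 4 clusters in turn, so Fabp1 stood there nearly without the apolipoprotein that accompanied it in ENR cells.

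The last question was whether the genes occurred together in the same cell. Among the 2545 thinned ENR cells, 7.23% (6.25% to 8.31%) held 4 or more of the 10 genes, against 2.98% if each gene fell on cells independently of the others. For 5 or more the shares were 2.71% and 0.397%, while 22.4% of cells held 0 of the genes against 16.1%. At the level of 2 or more, the observed 40.4% (38.5% to 42.3%) was below the 45.1% of independence. Cells thus lay more often at the extremes, with many genes or with 0, than independence gives. In ENR+CV 1.83% of cells held 4 or more, against 0.188%, and in ENR+CD 0.336%, or 8 cells, against 0.000824%.

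Of the 45 pairs in thinned ENR cells, 43 occurred together more often than independence gives, 24 of them with an interval above 1, and the median ratio of observed to expected cells was 1.42. Apoa1 with Apoa4 had the highest ratio, 3.49 (2.69 to 4.45), from 64 cells with both. Apoa4 with Apoc3 followed at 3.47 (2.47 to 4.75) and Rbp2 with Apoc3 at 3.44 (2.23 to 5.08). Mttp, one of the less concentrated genes, had ratios of 2.60 with Rbp2, 2.13 with Apoa1, 2.03 with Apoa4 and 1.97 with Apoc3. Fabp2 lay between 1.03 and 1.27 in its 9 pairs. The ratio of a pair has a ceiling set by the gene found in more cells. Fabp2 was found in 57.3% of thinned ENR cells, so its pairs could not reach the ratios of the rarer genes. Apob with Aadac was the lowest, at 0.573 (0.286 to 1.03) from 11 cells, and Dgat1 with Aadac stood at 0.892 (0.475 to 1.53). Over the 2545 ENR cells, at full depth, the log-normalised levels correlated most for Apoa1 with Apoa4 (Pearson's r = 0.35) and Apoa1 with Fabp1 (r = 0.35), values across cells of 1 library that share its depth differences.

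**Figure D5:**
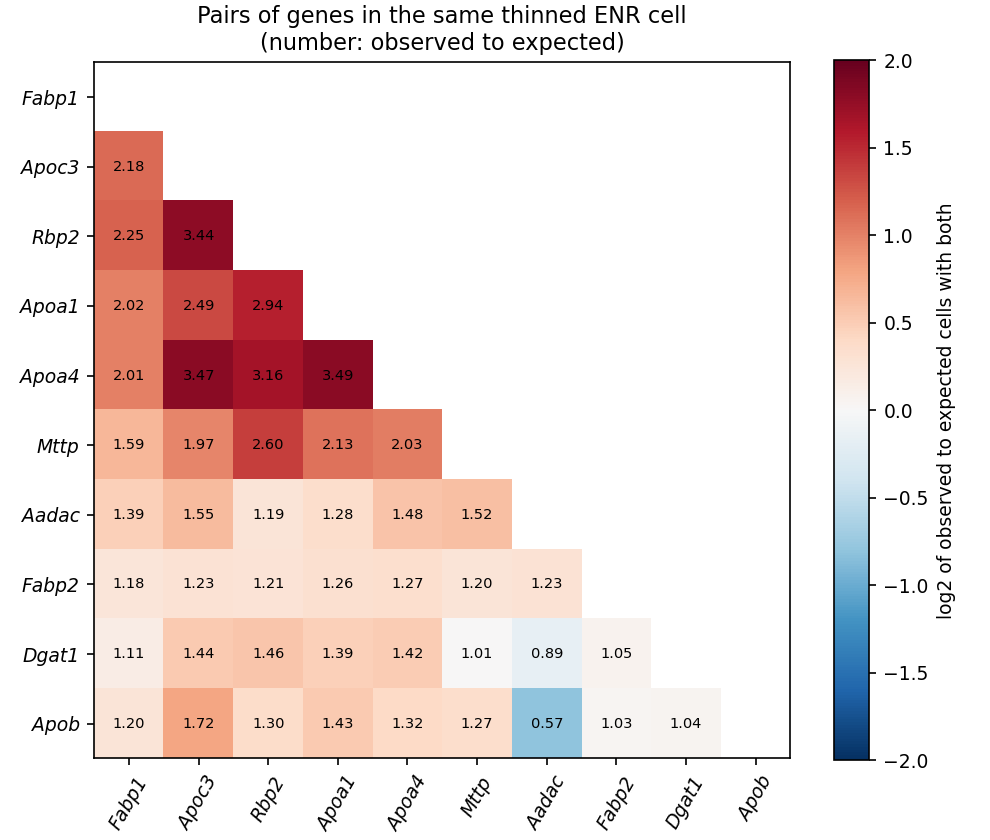
Observed to expected number of thinned ENR cells (n = 2545) with a UMI of both genes, for the 45 pairs; the colour is log2 of the ratio and the number in each square is the ratio. The genes are ordered by their share of UMIs in enterocyte-like cells, and the ratios of 2.01 or more lie among Fabp1, Apoc3, Rbp2, Apoa1, Apoa4 and Mttp. Fabp2, found in 57.3% of these cells, could not reach 2.01 in any pair.

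The number of lipid handling genes in a cell went with the markers of its type. In thinned ENR cells the 35 enterocyte markers summed to 2340.35 CPM where 0 of the genes were found (570 cells), 2714 CPM with 1 (947 cells), 3709.7 CPM with 2 (596 cells), 5988 CPM with 3 (248 cells) and 15745 CPM with 4 or more (184 cells). The Paneth cell markers went from 58440.4 CPM with 0 genes to 27060 CPM with 4 or more, and the goblet markers from 10989 to 6315 CPM. In ENR+CV the enterocyte markers went from 1366 CPM with 0 (511 cells) to 13944 CPM with 4 or more (18 cells). The stem cell markers in those ENR+CV cells stood at 3446 CPM with 0, 3255 CPM with 1, 3161 CPM with 2, 2043 CPM with 3 (23 cells) and 2000 CPM with 4 or more (18 cells) of the genes.

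Among the genes outside the group whose level followed the summed level most closely over ENR cells, of 8480 genes found in at least 50 ENR cells, were Sis, Reg1, Prap1, Gsta1, Spink3, Adh1, Mt1, Leap2 and 2210404O07Rik. Over these, Pearson's r ran from 0.34 for Sis, sucrase-isomaltase of the brush border, to 0.23 for 2210404O07Rik. Reg1 stood at 361 CPM under ENR, 3.31 CPM under ENR+CD and 26.9 CPM under ENR+CV, an order like that of Fabp2 and Apoa4 with ENR+CD lowest. Spink3 stood at 83.6, 7.27 and 1.70 CPM, which is the order of Apoa1 and Apoc3 with ENR+CV lowest. Mt1, a metallothionein, stood at 1960 CPM under ENR, 276 CPM under ENR+CD and 1847 CPM under ENR+CV, which resembles Dgat1 and Mttp. Gsta1 stood at 144, 166 and 35.7 CPM and, like Apob, did not meet the rule in ENR+CD against ENR.

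The counts of other lipid handling genes that follow stand beside background shares, over all genes tested, of 9.35% lower and 10.8% higher in ENR+CD and of 5.8% lower and 15.9% higher in ENR+CV. The lists differ in size, and no test was made between a list and the 10 genes or the background. Of 15 measured genes of lipoprotein assembly, 3 were lower and 2 higher in ENR+CD when set against ENR, and of 14 tested in ENR+CV 1 was lower and 0 higher. P4hb, the disulfide isomerase that is the partner of Mttp in its complex, stood at 513 CPM under ENR, 630.0 CPM under ENR+CD and 587 CPM under ENR+CV. Sar1b, of the coat that carries chylomicrons out of the endoplasmic reticulum, stood at 116, 140 and 106 CPM, and Surf4, a cargo receptor, at 97.2, 130.0 and 120.3 CPM. Neither met the rule in either comparison with ENR. Of 11 tested genes of glyceride synthesis, 1 was lower and 0 higher in ENR+CD, and 0 were lower and 2 higher in ENR+CV.

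Lipid droplet genes had 6 of 13 lower and 1 higher in ENR+CD and 5 of 13 lower and 1 higher in ENR+CV. Among them the esterase Ces2e stood at 158 CPM under ENR, 2.86 CPM under ENR+CD and 46.9 CPM under ENR+CV, an order like that of Aadac. Ces2a stood at 87.7, 32.6 and 33.3 CPM, and Plin3, a droplet coat protein, at 86.9, 66.5 and 123 CPM. Of 13 retinoid genes, 6 were lower and 2 higher in ENR+CD, and 4 were lower and 1 higher in ENR+CV. Rdh10, which makes retinal from retinol, was among the higher ones at 32.2 CPM under ENR and 260.4 CPM under ENR+CD, against 21.4 CPM under ENR+CV. Rbp2, the retinol carrier, was lower in both media.

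Uptake and activation genes had 3 of 12 lower and 0 higher in ENR+CD and 2 of 13 lower and 2 higher in ENR+CV. Acsl5, which activates long-chain fatty acids, stood at 142 CPM under ENR, 69.6 CPM under ENR+CD and 108 CPM under ENR+CV. Oxidation and ketogenesis genes had 7 of 25 lower and 1 higher in ENR+CD, and 1 lower and 5 higher in ENR+CV. Hadh, an enzyme of fatty acid oxidation, stood at 283, 126 and 321 CPM. Of 11 fatty acid synthesis genes 2 were lower in ENR+CD and 4 higher in ENR+CV, and of 17 sterol genes 1 was lower in ENR+CD, while in ENR+CV 1 was lower and 1 higher. Of the sterol genes Soat1, which esterifies cholesterol, stood at 132 CPM under ENR, 216 CPM under ENR+CD and 349 CPM under ENR+CV and met the rule in ENR+CV.

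Transcription factors of absorptive cells had 7 of 18 lower and 1 higher in ENR+CD, and 3 of 19 lower and 3 higher in ENR+CV, where 15.9% of all genes tested were higher. Hnf4a, a nuclear receptor of gut and liver epithelium, stood at 189.99 CPM under ENR, 84.6 CPM under ENR+CD and 247 CPM under ENR+CV. It met the rule in ENR+CD, with a ratio of 0.445. Cdx1, a homeobox factor of the intestine, stood at 137, 68.1 and 228 CPM, with a ratio of 0.496 in ENR+CD. Elf3 stood at 191, 169 and 337 CPM and did not meet the rule in either. Beside them, 20 of 34 tested enterocyte markers were lower and 3 higher in ENR+CD when set against ENR, and 18 of 32 were lower and 0 higher in ENR+CV. The part of cell makeup in the levels of the 10 genes was not tested.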

How the data were processed

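Seq-Well profiles of 3 organoid libraries (ENR, ENR+CD and ENR+CV, 1 each) were used. UMI counts per gene and cell were deposited by the authors, who demultiplexed the reads with bcl2fastq, aligned them to mm10 with STAR on a Drop-seq pipeline and collapsed them by UMI. Seurat is also named in the submitters' processing notes, and no source used here gives a version. The merged table, whose cells have at least 1001 UMIs, was used for all levels, and the tables of single libraries for barcodes outside it. It had 0 sample columns that were not used.

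Counts were summed over cells with 1000 to under 8000 UMIs and at least 400 genes. Exact Poisson, conditional binomial and Clopper-Pearson 95% intervals were computed with SciPy 1.17.1 and NumPy 2.4.6 (Python 3.11.15). UMIs amplified by PCR are not always independent molecules, so intervals cover counting error only. Cells were thinned to 1000 UMIs without replacement, and 3 counts were taken as the limit of detection. Clusters came from Seurat 5.3.0 (R 4.3.3), with log-normalisation to 10000, 12 principal components and resolution 1.35. A cluster was named where at least 3 of its 10 leading genes were markers of a class. No doublet caller was run. The call was tested on simulated counts. Promoters and their sequences are from RefSeq.

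The 10 members and the lists were chosen with earlier results of these data known. Other genes named are the 3 with most UMIs of each lipid list, P4hb, the 10 whose level followed the members most closely, and 3 leading genes per cluster. Some genes that this rule names are not reported here. Ptprc and the members singled out for concentration were chosen after their values were seen. Alternatives tried were the cell filter, weighting, scaling, thinning depth, clustering settings and fold of the call.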

Additional observations from a re-analysis of the deposited data

Results flagged for a closer look

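Lipid handling transcripts were also found in cells and barcodes that entered none of the comparisons. Cells of 8000 UMIs or more held 1415 UMIs of the 10 genes under ENR, 258 under ENR+CD and 5603 under ENR+CV. In ENR+CV this is more than the 4247 UMIs of the 985 kept cells, from 101 large cells, and 5 of them held 3875 of the 5603. In ENR the large cells were instead poor in the genes concentrated in enterocyte-like cells: Fabp1 stood at 56.3 CPM in them against 774 CPM in the kept cells, and Apoa4 at 11.4 CPM against 107 CPM. The less concentrated genes Dgat1, Mttp, Fabp2 and Aadac lay at 0.616, 0.773, 0.788 and 0.840 times their kept level. Apob, also less concentrated, was the only one of the 10 above its kept level, at 189.9 CPM against 109.9 CPM. However, 1 cell of 45505 UMIs held 76 of its 199 UMIs in the large ENR cells.

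Barcodes of 1000 UMIs or fewer, which the merged table leaves out, held 5816 UMIs of the 10 genes under ENR (3349 barcodes), 678 under ENR+CD (5494 barcodes) and 1885 under ENR+CV (3908 barcodes). Relative to all UMIs, the left-out barcodes were 1.02 times (0.986 to 1.05) as rich as the kept cells in ENR, 0.785 times (0.714 to 0.862) in ENR+CD and 1.15 times (1.09 to 1.22) in ENR+CV. In ENR each of the 10 genes lay between 0.933 and 1.08 times its level in the kept cells, and each interval included 1. In ENR+CD Apoa1 was at 0.258 times (0.145 to 0.434) and Fabp1 at 0.477 times (0.310 to 0.715), whereas Apob was at 1.04 times (0.902 to 1.19). Whether these barcodes are small cells or free RNA was not tested.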

How the results depend on the processing

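No paired analysis was possible because each condition had 1 library. The summed ratio of ENR+CD to ENR, 0.112, moved to 0.135 with cells of at least 2000 UMIs, 0.101 with cells weighted equally and 0.147 without Fabp1. Alternatives chosen after seeing the data gave 0.0962 without the 10 cells richest in the 10 genes, 0.154 without enterocyte-like cells and 0.554 with the labels attached to the single tables. The richest cells were picked by the UMIs of the genes compared, so the shifts without them, here and below, are partly set by that choice. That of ENR+CV to ENR, 0.554, turned to 1.01 with all cells of the merged table, in which 5 large ENR+CV cells weigh most. It moved to 0.582 with equal weights, 0.453 with the total taken without 176 defensin, mitochondrial and ribosomal protein genes, 0.437 with the median gene set to 0 and 0.311 without Fabp1. It was 0.388 without the 10 richest cells, 0.653 without enterocyte-like cells and 0.112 with the other labels. That of ENR+CD to ENR+CV, 0.202, was 0.117 with all cells, 0.249 at 2000 UMIs, 0.173 with equal weights, 0.247 and 0.263 under the other totals, and 0.474 without Fabp1. It was 0.248 without the richest cells, 0.236 without enterocyte-like cells and, reversed, 4.94 with the other labels, under which 1 of the 10 genes was lower in place of 6. The ratio of Apoa4 in this pair turned from 0.341 to 1.07 at 2000 UMIs. The share of ENR cells with 2 or more genes, 40.4%, was 21.4% thinned to 500 UMIs and 60.5% thinned to 2000. The share in enterocyte-like cells, 45.6%, was 42.1% at resolution 0.8, 43.1% at resolution 2, 48.6% with the genes kept for clustering and 37.4% with ENR clustered alone. Of 240 ratios of single genes under alternatives, 180 stayed within the interval of the main ratio and 59 left it. The other 1, that of Apoa4 above, had met the rule and turned. Ratios that had not met the rule were not counted as turned where they crossed 1. Among these, in ENR+CV against ENR, Fabp1 (1.13), Mttp (1.12) and Dgat1 (1.04) came to 0.892, 0.880 and 0.821 with the median gene set to 0. Depth limits Aadac in ENR+CD (3 UMIs) and Apoc3 in ENR+CV (6 UMIs).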
